A study of Drosophila melanogaster with 3 samples.

Results

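Chromatin immunoprecipitation followed by sequencing (ChIP-seq) located the zinc finger protein CG8159 around 9 genes of glycolysis, namely Hex-A, Pfk, Tpi, Gapdh1, Gapdh2, Pgk, Eno, PyK and Ldh. They are 9 of the 13945 protein-coding genes on the chromosome arms that carried peaks. The genes were chosen by name with earlier results known, and the set was built around Pgk because the site inside Pgk had the highest signal of all peaks, so that value is a description and supports nothing by itself. For each gene, every peak with its summit within 2 kb of the annotated gene was taken from the 5 deposited peak lists. The summit is the base of highest signal in a peak.

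The material was whole Drosophila melanogaster pupae, labelled 24 hour in age, with males and females pooled. Per the labels, all animals came from 1 transgenic line that stably expresses CG8159 with green fluorescent protein (GFP) fused to its C terminus, and no group lacks the tagged protein. The sample description names an antibody against GFP, while the antibody label names CG8159. The 3 biological replicates form 1 group, so no treatment, genotype or age was compared, and spread between replicates covers separate collections of the same line. Chromatin of all pupal tissues was mixed, so a site filled in few cells and a site weakly filled in many cannot be told apart.

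Glycolysis breaks glucose down to pyruvate in the cytosol and yields ATP and NADH. An upper phase spends ATP to phosphorylate and split the sugar, and a lower phase returns it through 3-carbon phosphates. Lactate dehydrogenase converts pyruvate to lactate and regenerates NAD+. In Drosophila the glycolytic genes are known to be switched on together ahead of larval growth by the nuclear receptor ERR.

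Of the 9 genes, 6 had a summit of the IDR list within 500 bp of one of their own annotated start sites, here called a promoter summit, against 22.9% of all protein-coding genes. IDR, the irreproducible discovery rate, is a method meant to keep peaks whose ranks repeat between replicates, but a listed peak need not repeat in every replicate. The 6 genes were Hex-A, Gapdh2, Pgk, Eno, PyK and Ldh, and the same 6 had an IDR summit within 2 kb, against 42.2% of genes. No IDR summit lay within 2 kb of Tpi, Gapdh1 or Pfk. All 9 genes have 2 or more annotated start sites, and among the 3699 genes with that many, 39.7% had a promoter summit and 61.4% had a summit within 2 kb. The members' share within 2 kb, 66.7%, was therefore close to that of genes with as many start sites, a comparison chosen after the values were seen.

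The sequences at 5 summits show the sites that carry these results. They are the intronic site of Pgk, which is the strongest of the list, the strong promoter sites of Gapdh2 and Hex-A, the site beyond the end of Eno, and the promoter site of Ldh. Each is the summit base and 50 bases on either side in the release 6 reference sequence (dm6), read 5′ to 3′ on the strand of the glycolytic gene, and capitals mark runs of at least 8 bases that are all A or T. The run length was chosen after the sequences were seen. The windows are chr2L:2752003-2752103 (minus strand) for Pgk, chrX:15867928-15868028 (plus strand) for Gapdh2, chr2L:1724425-1724525 (minus strand) for Eno, chrX:9585431-9585531 (plus strand) for Hex-A and chr3L:6262809-6262909 (minus strand) for Ldh.
Pgk: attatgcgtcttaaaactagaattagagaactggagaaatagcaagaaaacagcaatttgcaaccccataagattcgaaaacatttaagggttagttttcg
Gapdh2: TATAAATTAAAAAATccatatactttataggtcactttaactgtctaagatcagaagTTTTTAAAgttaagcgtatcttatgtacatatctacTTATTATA
Eno: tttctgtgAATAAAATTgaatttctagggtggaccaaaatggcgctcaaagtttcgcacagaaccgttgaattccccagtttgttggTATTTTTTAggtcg
Hex-A: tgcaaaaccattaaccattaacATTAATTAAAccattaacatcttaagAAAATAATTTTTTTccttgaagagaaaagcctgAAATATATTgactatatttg
Ldh: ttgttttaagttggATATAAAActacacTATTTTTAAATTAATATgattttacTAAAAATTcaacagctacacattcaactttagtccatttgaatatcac

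The promoter windows of Gapdh2, Hex-A and Ldh each held 3 such runs, the longest of 15, 14 and 17 bases, and were 77.2%, 76.2% and 77.2% A or T. The Pgk window held none, with a longest run of 6 and 66.3% A or T. The Eno window was 60.4% A or T with 2 runs of at most 9 bases. This did not divide promoter sites from others. The promoter windows not printed ranged from 50.5% with a longest run of 5 (Eno, 1727819) to 80.2% with 16 (Pgk, 2748871). The Hex-A window at 9583933, not a promoter site, was 78.2% with a longest run of 13. Over all 16 member summits the median was 69.8% A or T (50.5 to 80.2), close to the 70.3% of all 10239 IDR summits (quartiles 63.4 and 74.3). A run of 8 was found in 12 of the 16 windows (75.0%) and in 80.8% of all windows.

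The windows were searched on both strands for 6 motifs, and 0 of the 16 held any of them. The letters TATCGATA of the DNA replication-related element occurred in 0.508% of all IDR windows, GGTCACACT of core promoter motif 1 in 0.430%, AAGGTCA of the nuclear receptor core in 0.762% and the E-box CACGTG in 0.391%. The hypoxia response core ACGTG, which the E-box contains, occurred in 5.05% and the GAGA letters GAGAG in 9.63%. At these rates few matches would fall among 16 windows, and a missing match says nothing of a factor.

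The number of sites varied among the genes. Pgk had 5 IDR summits within 2 kb, Eno and Hex-A had 4 each, and Gapdh2, PyK and Ldh had 1 each, 16 in all. A count of 4 or more was reached by 3 of the 9 genes and by 5.23% of protein-coding genes. One of the 300 strongest IDR summits lay within 2 kb of 4 of the 9 (Pgk, Gapdh2, Eno and Hex-A) and of 3.44% of genes. Both limits were chosen after the values were seen, and the choice of the set around Pgk contributes to each count. The members had 2.21 summits per 10 kb of searched sequence, against 0.842 for all protein-coding genes searched the same way. The choice of the set around Pgk, with 5 of the 16 summits, contributes to this density too. With overlapping rows counted once, the members had 14 summits. No density of genes with 2 or more start sites is given here.

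**Figure D1:**
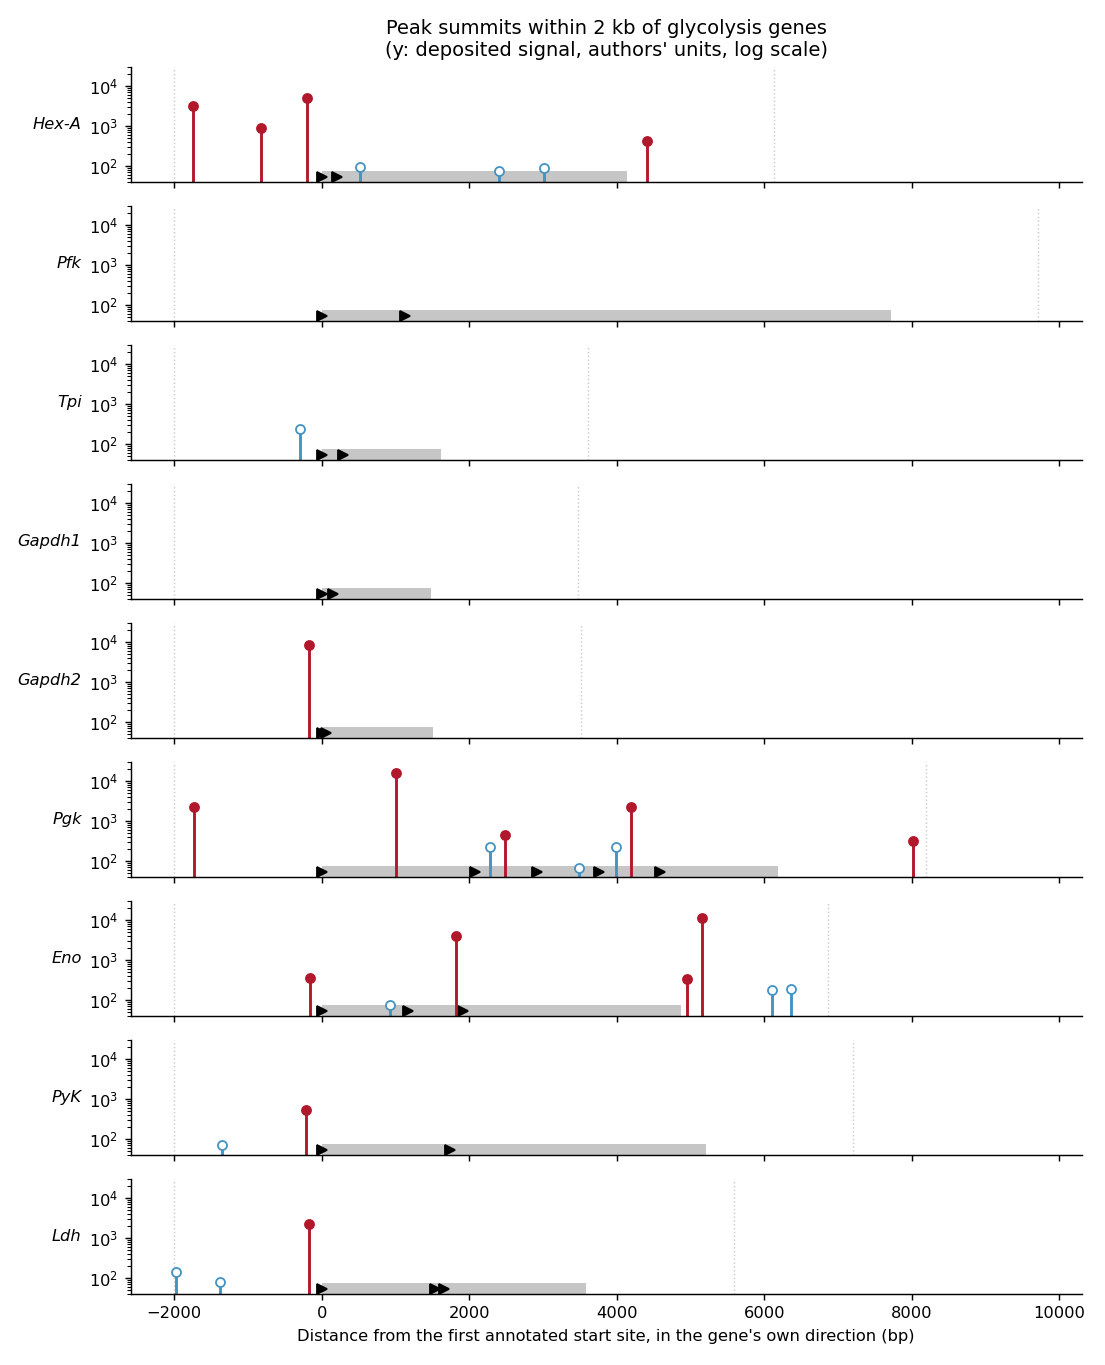
Peak summits around the 9 glycolysis genes, in the order of the pathway with Ldh last. The x axis is the distance in bp from the first start site in the gene's direction, and the y axis is the deposited signal on a log scale. Grey bars are genes, arrowheads are annotated start sites, dotted lines mark 2 kb beyond the gene, red filled points are IDR summits and blue open points are summits found only in the pooled list. Pgk carries 5 IDR summits and Gapdh2 1, while Pfk, Gapdh1 and Tpi carry none, and Tpi has a pooled summit only.

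All 16 IDR summits were held by all 3 replicates, meaning that one of the 10239 strongest peaks of each replicate overlapped the IDR peak by at least 1 bp. The same was true of 78.3% of all IDR peaks, and of 92.2% of the 8261 that were at least as strong as the weakest of the 16. The IDR method is itself meant to select for repeating between replicates. Yet each of the 16 had the same rank and signal in the pooled list, down to the weakest at rank 8261. Down to there, rank in the IDR list was thus rank by pooled signal. Counted from the replicates directly, 6 of the 9 genes had a summit of the strongest peaks within 2 kb in all 3 replicates, against 36.8% of protein-coding genes. Over all 5 lists, 135 peaks lay within 2 kb of 7 members. Of these, 16 were in the IDR list, 29 in the pooled list, 34 in replicate 1, 31 in replicate 2 and 25 in replicate 3.

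**Figure D2:**
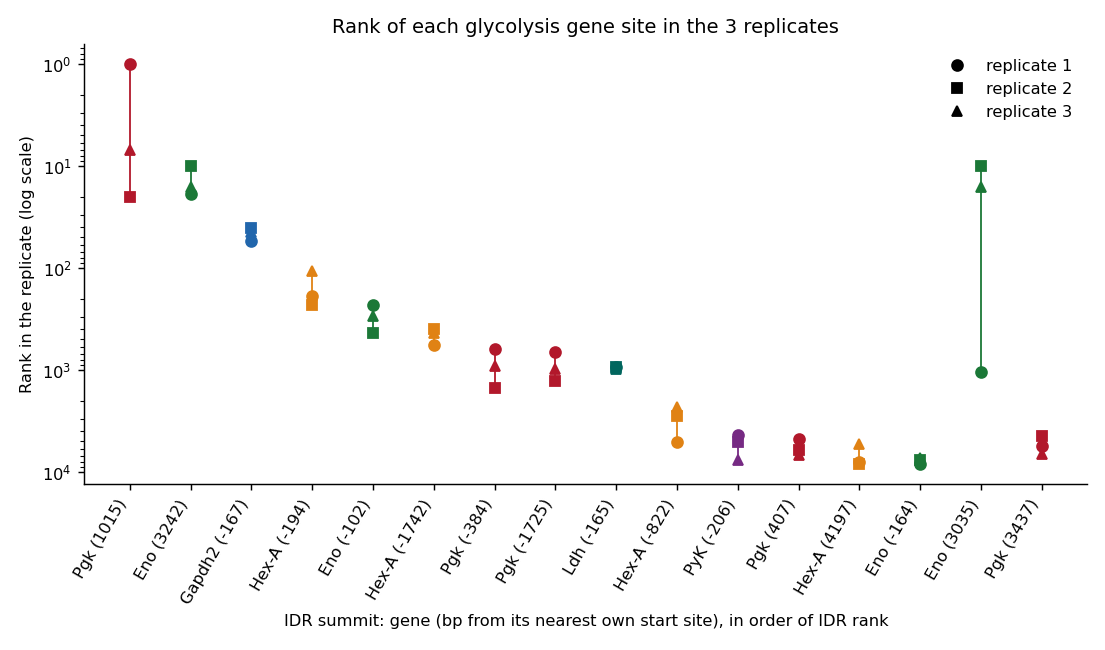
Rank of each of the 16 IDR summits in the 3 replicates. The y axis is the rank by signal on a log scale with the strongest at the top, the x axis orders the summits by IDR rank with the distance in bp to the nearest own start site in brackets, and circles, squares and triangles are replicates 1, 2 and 3. Most sites keep a similar rank, and the Eno summit at 3035 bp spreads from 10 to 1051 because in replicates 2 and 3 only the stronger neighbouring peak overlaps it.

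Hex-A encodes hexokinase, which phosphorylates glucose in the opening step. The gene spans X 9585675 to 9589813 on the plus strand, with 2 start sites. Its promoter summit lay at 9585481, 194 bp upstream of the first start site, with a signal of 4903 and rank 157. In replicates 1, 2 and 3 it ranked 187, 229 and 108, and its signal was 8.35, 8.24 and 10.8 times the median of the strongest peaks of the same replicate. The position was stable, with summits 196, 179 and 194 bp upstream of the start.

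Upstream of this promoter site lay 2 further Hex-A sites. The summit at 9583933, 1742 bp upstream of the gene, had a signal of 3204 and rank 450, with replicate ranks of 568, 393 and 432, and the nearest start site was that of the noncoding gene lncRNA:CR45541, 244 bp away. Between the pair, the summit at 9584853 was weaker, with a signal of 858, and ranked 5065 in replicate 1 but 2813 and 2294 in replicates 2 and 3. The last IDR summit, at 9590087 beyond the end of the gene, was nearest to lncRNA:CR45542 and had a signal of 409. The interior of Hex-A had no IDR summit, and its 3 pooled summits there had signals of 76 to 91, under the lowest IDR signal of 246.

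Pfk encodes phosphofructokinase, which commits sugar to glycolysis. The gene, on 2R at 10109740 to 10117457, is the longest of the 9 with 7718 bp. No list held a summit within 2 kb of it. The nearest IDR summit was 5194 bp away, with a signal of 526 and rank 5129, and the replicates had their nearest summits 5182, 5182 and 5262 bp away.

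Tpi encodes triosephosphate isomerase, which interconverts the triose phosphates, and lies on 3R at 30132981 to 30134599 on the minus strand. Its only pooled summit, at 30134892, was 293 bp upstream of the first start site, in the 3′ UTR of the adenosine receptor gene AdoR and 116 bp upstream of a start site of asRNA:CR46082. The signal was 237 and the rank 10595, just below the IDR list. It ranked 17253 in replicate 1, 8325 in replicate 2 and 10813 in replicate 3, so replicate 2 alone placed it among its 10239 strongest. The nearest IDR summit was 17114 bp from the gene.

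The paralogs Gapdh1 and Gapdh2 both encode glyceraldehyde-3-phosphate dehydrogenase, the enzyme that reduces NAD+ to NADH in the lower phase. Gapdh2 spans X 15868145 to 15869661 on the plus strand and had 1 IDR summit, at 15867978 in intergenic sequence 167 bp upstream of its first start site. The signal was 8089 and the rank 49, and the replicates ranked it 54, 41 and 44. Signals of 3105, 2505 and 2517 corresponded to 13.7, 16.2 and 15.3 times the replicate medians, or 15.1 ± 1.25 (SD, n = 3). The replicate summits lay 166, 161 and 165 bp upstream, within 6 bp of the IDR summit.

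Gapdh1, on 2R at 7791901 to 7793380 on the minus strand, had no summit within 2 kb in any list. The nearest summit of any list was 2476 bp away, in replicate 1 at rank 28977 of 30000. The nearest IDR summit was 8839 bp away and had a signal of 804. Of the paralogs, one thus had a promoter summit at rank 49 and the other had no peak within 2 kb. How reads that match both genes were placed is not given in the sources used here. With Pfk, 2 of the 9 genes lacked a summit in every list, against 31.1% of protein-coding genes. With Tpi, 3 of 9 had no IDR summit within 5 kb, against 42.2%. Both counts were near the share of all genes.

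Pgk encodes phosphoglycerate kinase, which makes ATP from 1,3-bisphosphoglycerate. It spans 2L 2746880 to 2753068 on the minus strand and has 5 annotated start sites spread through the gene. The strongest IDR summit, at 2752053 with a signal of 15635, lay in an intron, 1015 bp downstream of the first Pgk start site. At that distance it does not count as a promoter summit of Pgk. The nearest start site of any gene was that of Bacc, 392 bp away on the opposite strand.

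The replicates differed in how far this Pgk site stood out. It ranked 1 in replicate 1, 20 in replicate 2 and 7 in replicate 3, with deposited signals of 8938, 2922 and 3801. Relative to the median of each replicate's strongest peaks these were 39.6, 18.9 and 23.1, or 27.2 ± 10.9 (SD, n = 3), a wider spread than at Gapdh2. The summits lay within 9 bp of each other. The peak was 1383 bp wide in the IDR list, the second widest of 10150 intervals, against a median of 416 bp.

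Inside Pgk the promoter summits were 2 separate, weaker sites. The stronger, at 2748871, lay 384 bp upstream of an internal start site in an intron, with a signal of 2267 and rank 874. Replicates 1, 2 and 3 ranked it 628, 1519 and 920. A summit at 2750582, 407 bp downstream of another internal start site, had a signal of 444 and replicate ranks of 4773, 6107 and 6825, and the replicate summits lay up to 136 bp from the IDR summit. It also counts as a promoter summit of Pgk.

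Flanking Pgk were 2 sites nearer to other genes. The summit at 2754793, 1725 bp upstream of the gene in an intron of Bacc, had a signal of 2264 and replicate ranks of 666, 1273 and 988. The summit at 2745050, downstream of Pgk, lay 48 bp upstream of Cwc25, which encodes a splicing factor, and had a signal of 313. Its replicate summits lay up to 145 bp from the IDR summit, towards CG9961, a gene of the phosphoglycerate kinase family.

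The genes whose strongest summit ranked most like that of Pgk were found by the distance between log10 ranks in the 3 replicates, over 7251 genes with a summit within 2 kb in each. Genes that share an IDR summit with Pgk were left out, among them Bacc, whose strongest promoter summit is the same peak (signal 15635). Of the rest, the closest were CG31807, CG33552 and grp, a checkpoint kinase gene, at a distance of 0.323. They share 1 peak, which ranked 2, 16 and 6 in replicates 1, 2 and 3 and has rank 2 in the IDR list. Because these 3 genes have a single site, Gug was added as the next gene after the values were seen, with replicate ranks of 4, 42 and 19. At these sites, as at Pgk, replicate 1 gave the highest rank and replicate 2 the lowest. These genes were picked by the same replicate ranks, so the shared order follows in part from the choice.

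Eno encodes enolase, which forms phosphoenolpyruvate, and spans 2L 1724768 to 1729636 on the minus strand with 3 start sites. Its strongest summit, at 1724475, lay beyond the end of the gene and 87 bp upstream of Rim2, a mitochondrial nucleotide carrier gene. The signal was 11086 and the rank 15, and the replicates ranked it 19, 10 and 16 with summits within 2 bp of the IDR summit. An overlapping IDR peak with its summit at 1724682 had a signal of 329. In replicates 2 and 3 it was overlapped only by the main peak, with its summit 207 bp away.

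The promoter summit of Eno, at 1727819, lay 102 bp upstream of an internal start site, in the coding sequence of a longer isoform. Its signal was 3875 and its rank 298, and the replicates ranked it 233, 435 and 296. The replicate positions were 103, 194 and 272 bp upstream of that start, a spread of 84.6 bp (SD, n = 3) against 2.65 bp at Gapdh2. In replicate 1 the same peak held another summit, 313 bp upstream, with a signal of 1330. Only the summit nearest to the IDR summit was used, so this SD may mix separate summits of 1 peak. A second promoter summit at 1729800, 164 bp upstream of the first start site and 87 bp from that of CG31937, was weak, with a signal of 358 and replicate ranks of 8345, 7627 and 7328.

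PyK encodes pyruvate kinase, which makes ATP and pyruvate in the last step, and spans 3R 22367536 to 22372746 on the plus strand. Its IDR summit, at 22367330, lay 206 bp upstream of the first start site and 43 bp inside Polr3F, which encodes an RNA polymerase III subunit and runs in the opposite direction. The signal of 526 was the lowest of the 6 best promoter summits, and the replicates ranked it 4356, 5095 and 7733. With summits counted only for the gene of the nearest start site, a rule added after the values were seen, PyK lost its call to Polr3F. By that rule 5 of 9 members and 17.3% of protein-coding genes had a promoter summit.

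An intronic PyK site was present in replicates 1 and 2 and not in replicate 3 or the pooled list. It lay at 22368862 in replicate 1 (rank 3339) and at 22368864 in replicate 2 (rank 3909), 420 and 418 bp upstream of the second start site. Such pairs were rare. Among the 10239 strongest peaks of replicate 1, 64 (0.625%) overlapped a strongest peak of replicate 2 while no peak of replicate 3 or the pooled list overlapped them, against 28 (0.273%) shared with replicate 3 and missing from replicate 2.

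Ldh encodes lactate dehydrogenase and spans 3L 6259105 to 6262694 on the minus strand with 3 start sites. Its IDR summit, at 6262859, lay 165 bp upstream of the first start site in intergenic sequence, with a signal of 2162 and rank 950. The replicates ranked it 932, 934 and 986, at 3.95, 4.08 and 3.99 times their medians, with an SD of 0.0655 (n = 3). Its ranks differed less between replicates than those of the promoter sites of Pgk, Eno and PyK. Just outside the 2 kb limit, at 2172 bp, a summit nearest to Best2 had a signal of 2863.

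The 2 kb limit passed between sites of similar distance. Just inside it lay the Pgk summit at 1725 bp, the Hex-A summit at 1742 bp and the Pgk summit at 1830 bp. Just outside lay a Pgk summit at 2041 bp with a signal of 694, nearest to CG9961, the Ldh neighbour at 2172 bp, and a Hex-A summit at 2529 bp with a signal of 1310. In the pooled list, which goes down to 30000 peaks, 7 of the 9 genes had a summit within 2 kb, against 58.4% of protein-coding genes.

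Among the 3190 genes with a promoter summit, ordered by their strongest one, Gapdh2 took place 36, Hex-A 120, Eno 203, Pgk 466, Ldh 508 and PyK 1892. The median of the 6 was 3071, against 663 for all 3190 genes. Of the 8 member summits within 500 bp of an own start site, 7 (87.5%) lay upstream of it, at a median position of −166 bp (−384 to 407). The strongest of each of the 6 genes lay at a median of −180.5 bp (−384 to −102). Of all 3194 IDR summits within 500 bp of a start site, 74.6% lay upstream of the nearest one, at a median position of −122 bp. The measures differ, because the members were measured to their own start sites and all summits to the nearest start of any gene. By the nearest start, the PyK summit lay 43 bp downstream.

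**Figure D3:**
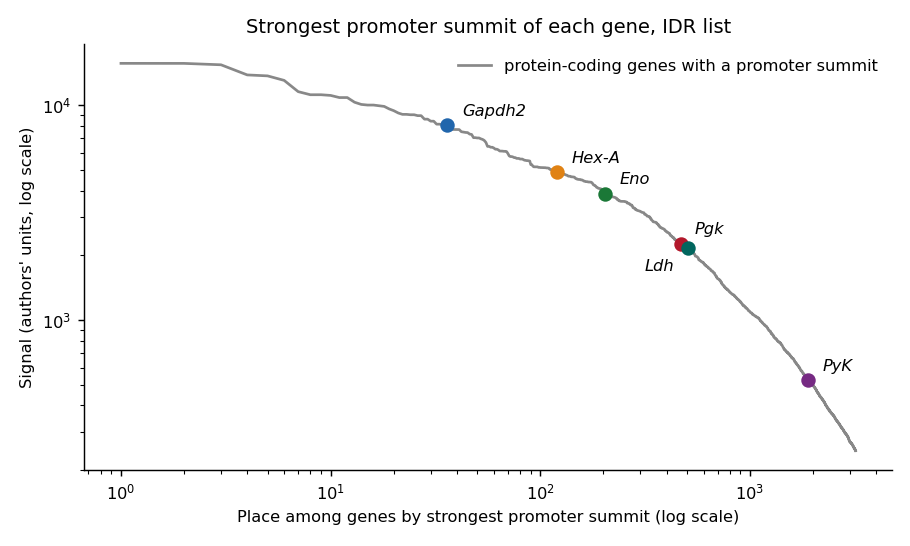
Strongest promoter summit of each protein-coding gene that has one in the IDR list. The x axis is the place of the gene in order of signal and the y axis is the signal in the authors' units, both on log scales. The grey line is all 3190 genes and coloured points are the 6 glycolysis genes, from Gapdh2 at place 36 to PyK at place 1892.

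The start site nearest to a summit was the member's in 6 of the 16 cases (37.5%) and another gene's in 10. Over all 12795 pairs of a protein-coding gene and an IDR summit within 2 kb, it was the gene's own in 52.1%. Of the 16 summits, 13 (81.2%) lay within 500 bp of some start site, against 49.1% of those pairs, and 8 within 500 bp of one of the member's own. The 2 sites of highest signal, in Pgk and beyond Eno, were both nearer to a neighbour, Bacc and Rim2. Gapdh2, Hex-A and Ldh, in contrast, had their strongest site nearest to their own start.

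The other glycolysis genes, 15 isozymes, paralogs and remaining enzymes, had promoter summits in 3 cases (20.0%), near the 22.9% of all genes. They were CG9961 (signal 694), which neighbours Pgk, Ald1 (311), which encodes aldolase, and Pgi (261), which encodes glucose-6-phosphate isomerase. The Ald1 site was held by 2 replicates and the others by all 3. Ald2 and CG11249 were among the 12 without one. In the replicates the share was 20.0%, 26.7% and 20.0%, against 66.7%, 77.8% and 66.7% for the 9 members. The members and lists were chosen with earlier results known. All members have 2 or more start sites, and how many of these 15 genes do is not given here, so the shares are not matched.

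Within 2 kb, 46.7% of these 15 genes had an IDR summit. Among 25 genes of the tricarboxylic acid (TCA) cycle and pyruvate dehydrogenase, 9 (36.0%) had a promoter summit, and 33.3% ± 6.11 in the replicates (SD, n = 3). Within 2 kb, 15 of the 25 had an IDR summit. The strongest promoter summits were at Idh3g, a subunit gene of isocitrate dehydrogenase (signal 3579), and Fum1, which encodes fumarase (3546, nearest to ND-ASHI). Next were mAcon1, which encodes aconitase (1075, held by 1 replicate), and Idh (970). CG33791 and CG5214 had no promoter summit, though CG33791 had 2 IDR summits within 2 kb.

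Of 16 genes of side routes (the pentose phosphate pathway, glycerol phosphate, trehalose and gluconeogenesis), 9 (56.2%) had a promoter summit, and 47.9% ± 3.61 in the replicates (SD, n = 3). They were led by the transketolase gene CG8036 (signal 4245, nearest to tRNA:Tyr-GTA-1-8), the pyruvate carboxylase gene PCB (2266), fbp, which encodes fructose-1,6-bisphosphatase (1534), and the transaldolase gene Taldo (524). Gpo1 and Pepck2 had no promoter summit, though Pepck2 had 4 IDR summits within 2 kb. The median best signal of the list was 473, below the 663 of all genes with a promoter summit. Within 2 kb the side routes reached 75.0%, above the 66.7% of the 9 members, so the order of the lists depended on the measure and the members did not stand out by distance to the gene. All protein-coding genes gave 23.7% ± 1.03 with a promoter summit in the replicates.

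**Figure D4:**
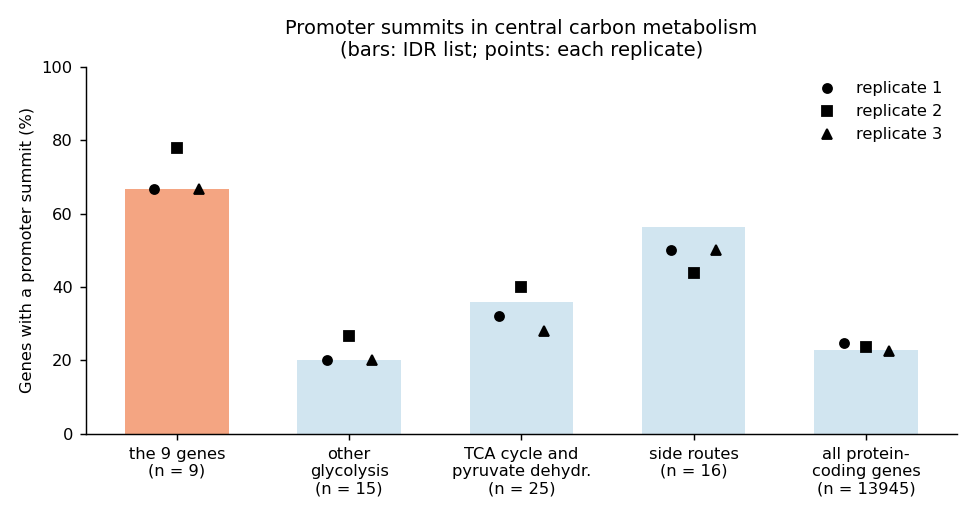
Share of genes with a promoter summit for the 9 glycolysis genes, 3 lists of related genes and all protein-coding genes. Bars, in percent on the y axis, are the IDR list, and circles, squares and triangles are the 10239 strongest peaks of replicates 1, 2 and 3. The 9 genes reach 66.7% and the other glycolysis genes 20.0%. All lists were chosen with earlier results known and are not matched for number of start sites.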

How the data were processed

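Binding was measured in 3 replicates of 1 group. Per the deposited file lists, the authors called peaks on dm6 for each replicate and for the pooled replicates, against the same control alignment, and derived an IDR list. Neither the caller nor the aligner is named (not given in the sources used here), and read depth is unknown. The deposited signal of each peak is the authors' own value and was compared only within a list. The deposited −log10 q-value was kept beside each peak and used for no call. The deposited summit offset, another column, gave positions. The IDR list held 10239 peaks and the others 30000 each.

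Genes and start sites came from Ensembl release 115, sequence from the release 6 assembly, and older symbols from RefSeq. Python 3.11.15 was used, and the counting was tested on simulated data. The members and lists were chosen with earlier results of these data known, so no test of them is given. Named are all members, the gene of the start site nearest to each IDR summit, and the 4 strongest and first 2 without a promoter summit in each list. Also named are the 3 genes most like Pgk among those that share none of its IDR summits. Of 26 TCA cycle and pyruvate dehydrogenase genes 25 were matched.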

Additional observations from a re-analysis of the deposited data

How the results depend on the processing

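Of 63 alternatives, 55 gave a count within 1.5 times the reported one. The number of members with a promoter summit stayed between 5 and 7 under the 8 tried. A promoter distance of 250 bp removed Pgk, and the pooled list added Tpi. Without the 2 kb margin, 2 members and 4 summits were left inside the genes. The share of all genes without the margin is not given here. The stronger 5119 peaks of the IDR list left 10 summits within 2 kb of members, and promoter summits at 1 other glycolysis gene, 5 TCA cycle and pyruvate dehydrogenase genes and 3 side route genes, while the share of all protein-coding genes fell from 22.9% to 13.5%. The pooled list gave 29 summits within 2 kb of members and 14 TCA cycle and pyruvate dehydrogenase genes, with 37.1% of all genes. For each pair of replicates, the IDR list was cut to peaks held by both, while the list itself was still called on all replicates. This added filter kept 6 members with a promoter summit and 2 to 3 other glycolysis genes. It kept 6 to 7 TCA cycle and pyruvate dehydrogenase genes and 6 to 7 side route genes. The share of all protein-coding genes fell from 22.9% to between 19.2% and 19.6%. With summits required to lie within 100 bp, 12 of the 16 member sites were held by all replicates. The share of all IDR peaks under this rule is not given here, so whether 12 of 16 is usual is unknown. No paired analysis was possible because there is 1 group. Counts of 9 genes move in large steps, and the depth behind them is unknown.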
